A study of Mus musculus with 69 samples.

Results

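The 10 genes described here encode factors and target genes of the YAP-TEAD pathway. They are grouped here as target genes (Ankrd1, Ccn1 and Ccn2), regulators (Amotl1, Amotl2, Lats2 and Ajuba), and transcription factors and co-activators (Yap1, Wwtr1 and Tead1). This grouping serves the description only, and regulators such as Amotl2 and Lats2 can be target genes as well. All members were chosen by name among the 56953 gene identifiers of the count tables, with earlier results of these data known. All 10 passed the filter on low counts in every comparison, and the lowest count of any of them in a library was 147, for Ankrd1.

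YAP (gene Yap1) and TAZ (gene Wwtr1) are transcriptional co-activators that have no DNA-binding domain of their own and reach promoters and enhancers through TEAD proteins such as TEAD1. The Hippo kinases phosphorylate both co-activators and keep them in the cytoplasm, LATS2 being a kinase that acts on them directly, whereas cell stretching, actin tension and ligands of Gq-coupled receptors such as angiotensin II favour their entry into the nucleus. AMOTL1 and AMOTL2 bind YAP at cell junctions, and AJUBA is a LIM protein that holds back LATS kinases. Because regulation acts mainly on the proteins, the mRNA of Yap1, Wwtr1 and Tead1 reports the amount of transcript only, and activity is commonly read from the target genes.

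RNA-Seq was performed with cultured primary cells of male C57BL/6 mice, the age of which is not given in the sources used here. WT VSMC were vascular smooth muscle cells from thoracic and abdominal aorta. KO VSMC were the same kind of cells from animals with a floxed Egfr gene and Cre under the SM22 promoter, which is active in smooth muscle. EC were endothelial cells from the heart, selected with magnetic beads as CD45-/CD31+ cells. Following serum withdrawal, the Control cells were left without stressor, and the others received for 24 h metabolic stressors (HG + FFA, 20 mM glucose and free fatty acids, 100 µM in the labels, which the methods of the study give for each of oleate and palmitate), humoral stressors (AII + NA, 30 nM angiotensin II and, according to the labels, 300 nM epinephrine, whereas the methods of the study name norepinephrine) or both (ALL). The libraries formed sets of the 4 conditions from the same animal. Sets 1 to 4 were WT VSMC, sets 5 to 8 KO VSMC and sets 9 to 18 EC. Every group had n = 4 in VSMC except ALL in KO VSMC with n = 3, as set 5 had no ALL library. In EC, Control and AII + NA had n = 9 and the other conditions n = 10, as set 10 had no Control and set 15 no AII + NA library. EC sets 17 and 18 came from 1 animal, which leaves 9 animals. EC sets 9 and 10 shared animals with WT VSMC sets 1 and 2, and EC sets 15 and 16 with KO VSMC sets 7 and 6.

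Total counts ranged from 23626664 to 37801299 in WT VSMC, from 23238979 to 35120866 in KO VSMC and from 17166133 to 43240489 in EC. Levels are given as FPM, fragment counts scaled to a common library size after TMM normalization. Egfr, the targeted gene, lay between 228 and 504 FPM in WT VSMC and between 0.537 and 1.96 FPM in KO VSMC sets 6 to 8, but between 33.4 and 40.2 FPM in KO VSMC set 5, so that results in KO VSMC are also given without set 5 where that changed a call. In EC, which were labelled WT, Egfr was lowest in set 16 with 2.16 to 3.16 FPM and in set 15 with 7.45 to 12.5 FPM, and the other sets ranged from 10.4 to 166 FPM. The summed level of 10 endothelial markers was 55.8 to 5277 FPM in EC and 2.62 to 79.3 FPM in VSMC of either genotype. Acta2, smooth muscle actin, lay between 223 and 2566 FPM in VSMC, but Myocd, which drives smooth muscle identity, did not exceed 1.33 FPM there. Acta2 reached 3745 FPM in EC. Fibroblast markers (6 genes) summed to 3955 to 11440.1 FPM in WT VSMC, 1225 to 6289 FPM in KO VSMC and 434 to 11253 FPM in EC. Of 8 cardiomyocyte markers, which summed to 6.08 to 128 FPM in WT VSMC, 20.4 to 198 FPM in KO VSMC and 2.20 to 305 FPM in EC, Tnnt2 was the most abundant with medians of 21.8, 53.8 and 92.1 FPM, whereas Myh6, Actc1, Nppa and Mb stayed under 1 FPM in every library. In bulk samples, a smaller share of cells of a type and less RNA per cell cannot be told apart.

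The promoters of Ccn1, Amotl2 and Ankrd1 are shown because TEAD proteins act on such genes through the core motif GGAATG, which reads CATTCC on the other strand. Each sequence is the reference sequence of GRCm39, 250 bases long, on the strand of the gene and ends at the base before the annotated start of the canonical transcript. Capitals mark the TEAD core motif.
Ccn1, chr3:145355739-145355988, minus strand: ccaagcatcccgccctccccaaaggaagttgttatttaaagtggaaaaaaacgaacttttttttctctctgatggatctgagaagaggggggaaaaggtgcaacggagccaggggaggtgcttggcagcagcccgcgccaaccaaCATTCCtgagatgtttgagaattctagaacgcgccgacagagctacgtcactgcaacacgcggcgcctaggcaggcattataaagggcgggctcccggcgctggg
Amotl2, chr9:102594617-102594866, plus strand: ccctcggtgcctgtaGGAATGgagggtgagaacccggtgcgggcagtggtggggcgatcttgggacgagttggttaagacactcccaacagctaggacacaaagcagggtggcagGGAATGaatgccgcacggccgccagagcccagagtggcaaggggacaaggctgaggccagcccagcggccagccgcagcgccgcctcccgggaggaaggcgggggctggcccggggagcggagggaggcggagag
Ankrd1, chr19:36097507-36097756, minus strand: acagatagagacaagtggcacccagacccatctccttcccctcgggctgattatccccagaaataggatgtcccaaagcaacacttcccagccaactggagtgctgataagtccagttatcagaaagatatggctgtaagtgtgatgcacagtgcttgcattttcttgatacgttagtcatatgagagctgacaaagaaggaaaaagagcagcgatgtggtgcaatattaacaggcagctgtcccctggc

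The Amotl2 window held 2 TEAD core motifs, which began 235 and 135 bases before the start, and Ccn1 held 1, at 105 bases. Yap1, Wwtr1 and Tead1 held 1 each, and Ankrd1, Amotl1, Lats2 and Ajuba held none in this window. A motif of this kind was therefore found in 5 of the 9 members examined, compared with 12.1% of 21770 promoters of protein-coding genes of the same length. The AP-1 motif TGANTCA and the SRF CArG box were in none of these 9 windows and in 6.17% and 1.4% of all promoters. Matches describe the sequence only and were not tested as sites.

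Regarding the genes themselves, Ankrd1 lies on chromosome 19 (36089352 to 36097506), Ccn1 on chromosome 3 (145352720 to 145355738) and Ccn2 on chromosome 10 (24471333 to 24474900) of GRCm39. Exons of other annotated genes covered 24.3% of the exon length of Ankrd1, 23.0% of Ccn1, 36.5% of Ccn2 and 30.4% of Lats2. Reads there could be shared with or lost to the other gene, and the strand setting of the counting is not given in the sources used here. The overlap was 1.24% for Yap1 and 0% for the remaining members.

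Under Control conditions, the 3 cell types expressed all members, and the secreted matrix proteins CCN2 and CCN1 had the most abundant transcripts. Levels between genes are compared as FPKM, which is FPM per kb of exon. Ccn2 had 309 ± 223 FPKM (SD, n = 4) in WT VSMC, 886 ± 620 FPKM (SD, n = 4) in KO VSMC and 675 ± 492 FPKM (SD, n = 9) in EC. Ccn1 came next with 170 ± 69.5 FPKM (SD, n = 4), 383 ± 174 FPKM (SD, n = 4) and 501 ± 260 FPKM (SD, n = 9), and its range overlapped with that of Ccn2 in each cell type. Amotl2 had 45.9 ± 4.71 FPKM (SD, n = 4) in WT VSMC, where its lowest library, at 40.3 FPKM, was above every library of the 7 less abundant members. Yap1 (18.05 ± 2.09 FPKM), Amotl1 (14.5 ± 2.52), Ajuba (14.1 ± 2.45), Wwtr1 (12.1 ± 2.35), Ankrd1 (9.34 ± 12.7), Tead1 (9.14 ± 1.15) and Lats2 (7.53 ± 1.61) followed in WT VSMC (SD, n = 4 each), with ranges that overlapped between neighbours in this order. By the mean, Lats2 was the least abundant member per exon length in all 3 cell types. In WT VSMC this rested on set 3, as Ankrd1 had 28.3 FPKM there and 1.80 to 5.03 FPKM in the other 3 sets, below the lowest Lats2 library at 5.68 FPKM, and the median was 3.64 FPKM for Ankrd1 and 7.64 FPKM for Lats2. By the mean, Ankrd1 was the eighth in WT VSMC, the third in KO VSMC and the fourth in EC, and Yap1 was the fourth, the sixth and the ninth.

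**Figure D1:**
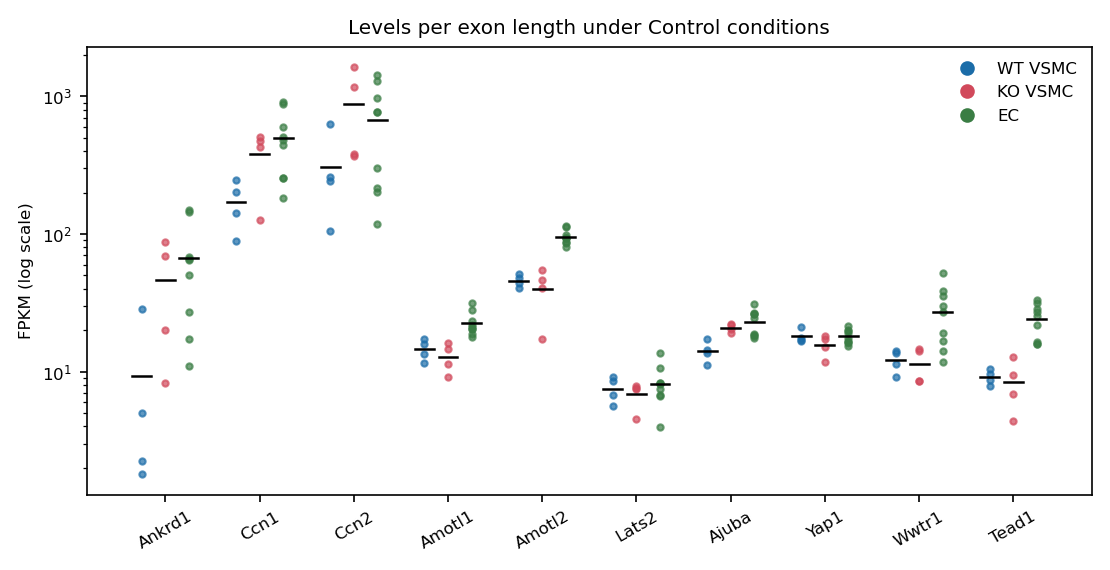
Levels of the 10 members under Control conditions in FPKM (log scale), one point per library and a line at the mean, for WT VSMC (n = 4), KO VSMC (n = 4) and EC (n = 9). Ankrd1 spreads over more than a decade within each cell type, whereas the Yap1 points of all 3 cell types lie within 11.8 to 21.6 FPKM.

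Members differed in how much they varied between animals. The highest Control library exceeded the lowest 15.7-fold for Ankrd1 in WT VSMC, 10.6-fold in KO VSMC and 13.7-fold in EC. For Ccn2 these ratios were 6.01, 4.44 and 12.02. Yap1, in contrast, differed at most 1.53-fold between Control libraries of a cell type. The set was part of each model of stressor effects, so that stressor libraries were compared with the Control of the same set. EC set 10 had no Control and gave no ratio to it.

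In WT VSMC, Ankrd1 was more abundant with AII + NA and with ALL than under Control conditions in each of the 4 sets. Ankrd1 encodes a nuclear and sarcomeric ankyrin repeat protein and is a common readout of YAP activity. In sets 1, 2, 3 and 4 it had 15.01, 6.72, 84.4 and 5.36 FPM under Control conditions and 18.01, 5.89, 118 and 7.14 FPM with HG + FFA. With AII + NA it had 26.4, 19.4, 155 and 63.1 FPM, and with ALL it had 24.8, 30.1, 155 and 55.3 FPM. Set 3 was the highest under every condition, so that the groups overlapped although each set moved in the same direction. The ratio to the Control of the same set was 1.75 to 11.6 with AII + NA, 1.65 to 10.1 with ALL and 0.878 to 1.399 with HG + FFA, and set 4 had the largest ratio with both AII + NA and ALL.

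The fitted log2FC of Ankrd1 with ALL was 1.70 ± 0.41 (SE), that is 3.25-fold (edgeR FDR = 0.0190). It was the only member in WT VSMC that also met the DEG rule of the study (FDR under 0.05 in edgeR and DESeq2, a minimum |log2FC| of 0.64 and a minimum level of 3 FPM). With AII + NA the fitted value was nearly as large, at 1.62 ± 0.41, but missed the threshold (edgeR FDR = 0.173), and 9 of 16905 genes or 0.0532% passed it in that comparison. The log2FC with AII + NA was 1.05 without set 4. Without set 2, the FDR with ALL was 0.0881 (edgeR), and without each other set it stayed under the threshold. The summed level of 8 smooth muscle markers, mainly Acta2, was 356 to 1199 FPM under Control conditions. It was 837 to 2121 FPM with AII + NA and 1087 to 1521 FPM with ALL. That of 8 cardiomyocyte markers was 6.39 to 34.4 FPM (median 22.3) under Control conditions, 8.12 to 128 FPM (median 35.9) with AII + NA and 6.08 to 124 FPM (median 41.9) with ALL. The part of either list in these results was not tested.

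Ccn1 and Ccn2 shared the pattern with AII + NA but not with HG + FFA. Ccn1 had 412, 286, 502 and 180.4 FPM in Control sets 1 to 4 and 586, 545, 656 and 706 FPM with AII + NA. Ccn1 was thus above the Control of its set in 4 of 4 sets with AII + NA. With HG + FFA it had 255, 244, 308 and 157 FPM, each below the Control of its set, and with ALL it had 237, 417, 364 and 534 FPM, higher than Control in 2 sets and lower in 2. Ccn2 had 1998, 775, 829 and 333 FPM under Control conditions, 1766, 744, 596 and 331 FPM with HG + FFA, 2739, 1439, 1194 and 1544 FPM with AII + NA and 2053, 1367, 819 and 1291 FPM with ALL. It was thus higher with AII + NA in 4 of 4 sets, by 1.37 to 4.64-fold, and lower with HG + FFA in 4 of 4, though by as little as 0.995-fold. The fitted log2FC with AII + NA was 0.89 ± 0.27 for Ccn1 and 0.99 ± 0.26 for Ccn2 (edgeR FDR = 0.252 and 0.200), and 0.60 and 0.63 without set 4. In the model of all 4 conditions with the filter on low counts, neither passed the threshold in edgeR in any WT VSMC comparison with Control. Without the filter both were called with AII + NA, Ccn1 also with HG + FFA and Ccn2 with ALL, while DESeq2 called Ccn2 with AII + NA (DESeq2 FDR = 0.0447). Fitted with the Control and HG + FFA libraries alone, Ccn1 was called as lower with HG + FFA (log2FC -0.45, edgeR FDR = 0.0339).

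**Figure D2:**
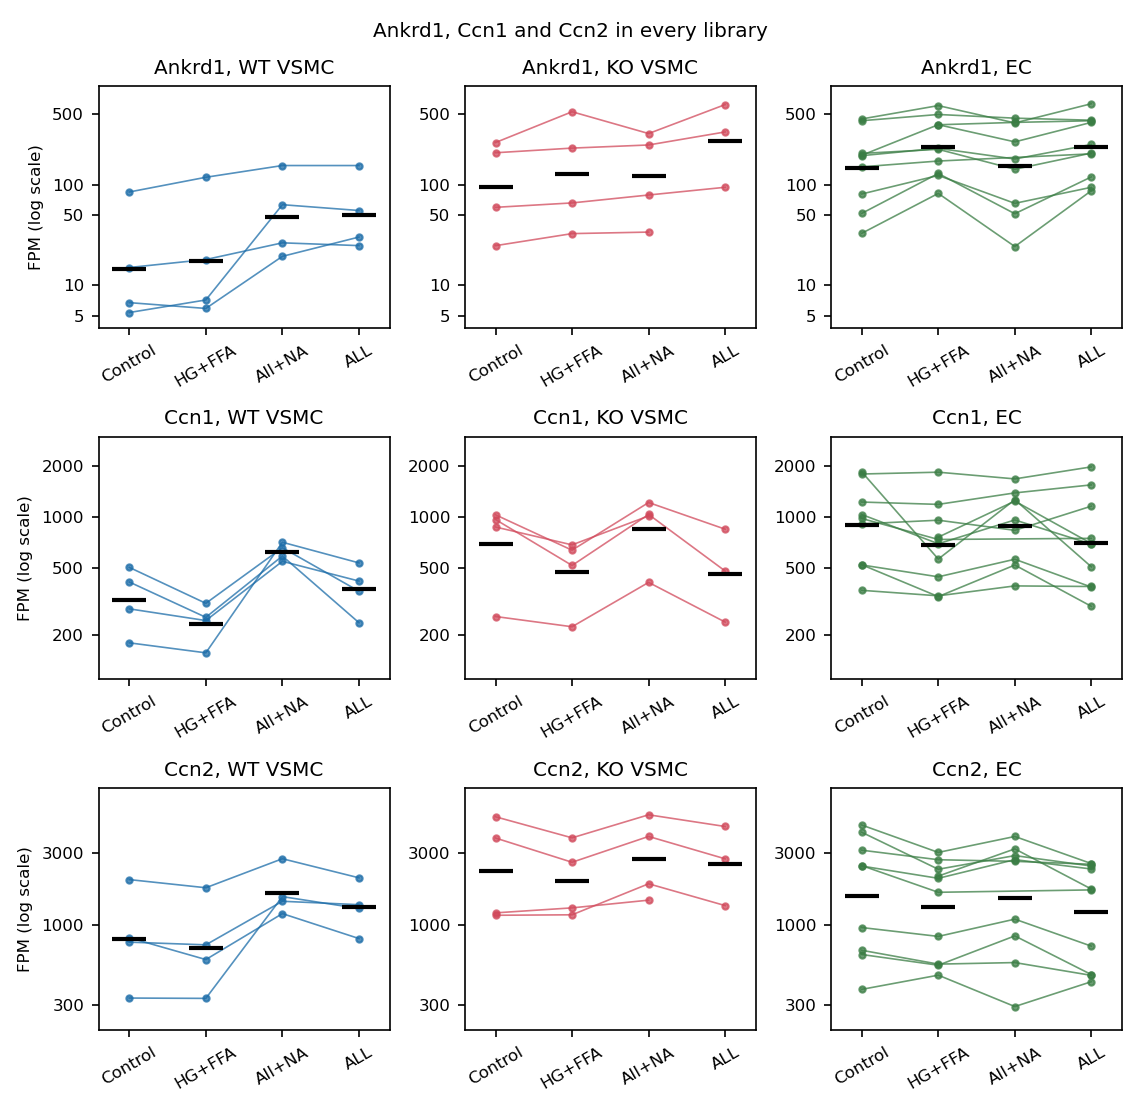
Ankrd1, Ccn1 and Ccn2 in FPM (log scale) in every library, with lines joining the libraries of a set and black bars at the geometric mean of a condition. In WT VSMC all lines are higher at AII+NA than at Control for each of the 3 genes, whereas in EC Ankrd1 is higher at HG+FFA and at ALL and Ccn2 is lower there in 8 of 9 sets.

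Among the factors and regulators in WT VSMC, Tead1 and Ajuba were higher with ALL. Tead1, the DNA-binding partner of YAP, had 131, 106, 142 and 118 FPM in Control sets 1 to 4. With ALL it had 192, 143, 173 and 145 FPM, higher in 4 of 4 sets. The groups came close, at 141.9 FPM in the highest Control and 142.5 FPM in the lowest ALL library. The fitted increase was 1.32-fold (log2FC 0.40 ± 0.10, edgeR FDR = 0.0244). Ajuba had 42.7, 51.9, 65.3 and 54.5 FPM under Control conditions and 50.6, 69.5, 71.3 and 73.9 FPM with ALL, higher in 4 of 4 sets and 1.24-fold by the fit (log2FC 0.31 ± 0.08, edgeR FDR = 0.0288). Lats2 (log2FC 0.32 ± 0.09, edgeR FDR = 0.0540) and Yap1 (log2FC 0.22 ± 0.07, edgeR FDR = 0.0756) were higher than Control in 4 of 4 sets without passing the threshold, and DESeq2 called both (DESeq2 FDR = 0.0223 and 0.0284). Leaving out set 1, 3 or 4 took Tead1 over the threshold (edgeR FDR 0.108, 0.0585 and 0.0739), and leaving out set 2, 3 or 4 did so for Ajuba (edgeR FDR 0.130, 0.0503 and 0.170). Fitted with the Control and ALL libraries alone, Ajuba had an edgeR FDR of 0.0512.

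By count, 3 of 10 members were called with ALL in WT VSMC, all higher, beside 7.45% of the 16905 genes tested (1259 genes), 1 met the DEG rule beside 2.22%, 6 had an unadjusted p under 0.05 beside 21.7% and DESeq2 called 5 beside 9.73%, and the median log2FC of the members was 0.27 against -0.010 for all genes. With AII + NA no member was called in edgeR, 8 had an unadjusted p under 0.05 (7 higher, and Wwtr1 lower) beside 9.42% of all genes, 1 was called in DESeq2 (1% of all genes) and 5 were called in edgeR without the filter on low counts, beside 1.86% of 33583 genes. With HG + FFA none was called by either tool and 1 had an unadjusted p under 0.05, beside 0.538% of genes called in edgeR, 1.74% in DESeq2 and 11.2% under 0.05. Wwtr1, which encodes the co-activator TAZ, was below Control in 4 of 4 sets with AII + NA (log2FC -0.20 ± 0.09, edgeR FDR = 0.503). Direct tests of ALL minus HG + FFA and ALL minus AII + NA called no member in edgeR (7 and 2 with an unadjusted p under 0.05, and 1 and 0 called in DESeq2), beside 0.0414% and 1.36% of genes called in edgeR, 10.8% and 14.3% under 0.05 and 1.33% and 3.2% called in DESeq2. Departure from additivity was called for no member and no other gene (0%) in any cell type by edgeR with the filter on low counts or by DESeq2. Without the filter, edgeR called no member and 70 of 33583 genes in WT VSMC, 20 of 32381 in KO VSMC and 78 of 36539 in EC. With the filter, 1 member, Tead1 in EC, had an unadjusted p under 0.05 beside 8.42% of genes.

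**Figure D3:**
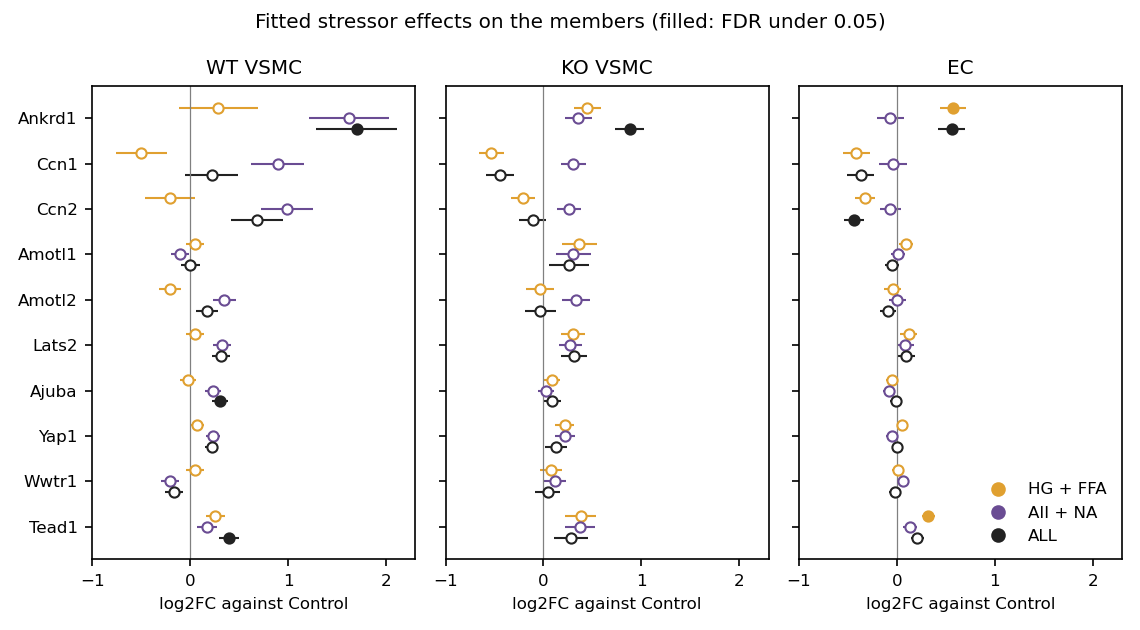
Fitted log2FC of each member against Control with its standard error, for HG + FFA, AII + NA and ALL in WT VSMC, KO VSMC and EC. Filled symbols have an edgeR FDR under 0.05, which 8 of 90 values do, 7 of them to the right of 0.

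In KO VSMC, Ankrd1 was again more abundant with the stressors than under Control conditions in each set, and its Control levels overlapped with those of WT VSMC. In sets 5, 6, 7 and 8 it had 24.7, 207, 262 and 59.4 FPM under Control conditions, 32.6, 230.3, 529 and 65.7 FPM with HG + FFA and 33.7, 247, 321 and 78.8 FPM with AII + NA. With ALL, sets 6, 7 and 8 had 333, 623 and 94.0 FPM. It exceeded the Control of its set in all 11 stressor libraries, by 1.11 to 2.02-fold with HG + FFA, 1.19 to 1.36-fold with AII + NA and 1.58 to 2.38-fold with ALL. The fitted log2FC with ALL was 0.88 ± 0.15, that is 1.84-fold (edgeR FDR = 0.0200), and it met the DEG rule. The FDR was 0.187 without set 6 and 0.140 without set 7, and 0.0153 without set 5 (edgeR). With HG + FFA and with AII + NA the values were 0.45 ± 0.14 and 0.36 ± 0.14 (edgeR FDR = 0.233 and 0.509).

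Ccn1 followed another course than Ankrd1 in KO VSMC. It had 869, 1025, 962 and 258 FPM in Control sets 5 to 8, 682, 634, 516 and 224 FPM with HG + FFA and 1009.9, 1211, 1030.5 and 409.7 FPM with AII + NA. In sets 6, 7 and 8 it had 844, 478 and 239 FPM with ALL. Every set was below its Control with HG + FFA and with ALL and above it with AII + NA. The difference between ALL and AII + NA was called, with a log2FC of -0.75 ± 0.14 (edgeR FDR = 0.0312), and was lost without set 6, 7 or 8 (edgeR FDR 0.169, 0.534 and 0.0942). In WT VSMC this difference was -0.67 ± 0.27 (edgeR FDR = 0.249), with ALL below AII + NA in 4 of 4 sets. With HG + FFA the log2FC of Ccn1 in KO VSMC was -0.53 ± 0.13 (edgeR FDR = 0.101), which DESeq2 called (DESeq2 FDR = 0.00615). Ccn2 had 1208, 5170.0, 3748 and 1164 FPM under Control conditions and 1463, 5327, 3839 and 1875 FPM with AII + NA, 1.02 to 1.61-fold higher in the 4 sets, and passed no threshold in KO VSMC.

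Of the 10 members in KO VSMC, 1 was called with ALL, beside 0.399% of 17538 genes (0.314% by the DEG rule). With HG + FFA no member was called in edgeR, 5 had an unadjusted p under 0.05 and 1 was called in DESeq2, beside 0.439%, 12.4% and 1.4% of genes. Without set 5, in which Egfr was not as low as in the other KO sets, 4 members were called with HG + FFA in edgeR, namely Ccn1 lower and Tead1, Lats2 and Amotl1 higher, and 1442 of 16821 genes were called there. With AII + NA no member and no other gene was called in edgeR, whereas 268 of 32381 genes but no member were called without the filter on low counts. All 10 members had positive fitted values there, 0.025 to 0.37, 6 of them with an unadjusted p under 0.05 beside 9.76% of all genes, and DESeq2 called 0 members and 11 other genes (0.0627%). Smooth muscle markers in KO VSMC summed to a median of 1560 FPM under Control conditions, 1412 FPM with HG + FFA, 1775 FPM with AII + NA and 1150 FPM with ALL. For cardiomyocyte markers the median was 82.8, 24.9, 65.5 and 35.6 FPM. Set 5 had no ALL library, and the part of the markers in the values of the members was not tested.

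In EC, Ankrd1 and Tead1 were higher with the metabolic stressors. Ankrd1 ranged from 32.8 to 448 FPM (median 194) under Control conditions, from 81.7 to 609 FPM (median 227) with HG + FFA, from 24.2 to 457 FPM (median 179) with AII + NA and from 87.0 to 635 FPM (median 228) with ALL. The groups overlapped widely, but Ankrd1 was above the Control of its set in 9 of 9 sets with HG + FFA (1.10 to 2.49-fold) and in 9 of 9 with ALL (1.01 to 2.65-fold), and in 2 of 8 with AII + NA. The fitted log2FC was 0.57 ± 0.13 with HG + FFA (edgeR FDR = 0.0103), 0.56 ± 0.13 with ALL (edgeR FDR = 0.0145) and -0.065 ± 0.14 with AII + NA (edgeR FDR = 0.926). ALL minus AII + NA gave 0.62 ± 0.13 (edgeR FDR = 0.00535). Set 12 was needed for the call with HG + FFA (edgeR FDR = 0.0638 without it) and sets 12 and 18 for that with ALL (edgeR FDR = 0.0526 and 0.0643). With the Control and ALL libraries alone, the FDR with ALL was 0.0539 (edgeR). With the animal in place of the set as the block, so that sets 17 and 18 counted as one, the log2FC was 0.60 and 0.61 but neither was called (edgeR FDR = 0.306 and 0.319), nor was ALL minus AII + NA (edgeR FDR = 0.294).

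Tead1 in EC lay between 215 and 450 FPM (median 343) under Control conditions and between 238 and 574 FPM (median 403) with HG + FFA, higher in 9 of 9 sets by 1.02 to 1.61-fold. Its log2FC was 0.32 ± 0.07 (edgeR FDR = 0.00509) and was called without each set in turn, but not with the Control and HG + FFA libraries alone (edgeR FDR = 0.0535). With ALL it was higher in 8 of 9 sets (log2FC 0.21 ± 0.07, edgeR FDR = 0.0905). Tead1 was thus called in WT VSMC with ALL and in EC with HG + FFA, and a difference of its stressor effects between these cell types was not called.

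Ccn2 went the other way in EC. It ranged from 379 to 4562 FPM (median 2452) under Control conditions, from 470.4 to 3014 FPM (median 1843) with HG + FFA and from 426 to 2546 FPM (median 1720.1) with ALL, below its Control in 8 of 9 sets with either, set 11 being the exception. The fitted log2FC was -0.44 ± 0.10 with ALL (edgeR FDR = 0.0123) and -0.32 ± 0.10 with HG + FFA (edgeR FDR = 0.0752, DESeq2 FDR = 0.0305). ALL minus AII + NA gave -0.37 ± 0.10 (edgeR FDR = 0.0370). Without set 13, the FDR with ALL was 0.0624, without sets 15 and 16 it was 0.102, with the animal as the block it was 0.136, and with the Control and ALL libraries alone it was 0.0580 (edgeR). For HG + FFA it was 0.00675 without set 11. The call in ALL minus AII + NA was kept only without set 11 or set 16 among the 10 single sets, and with the animal as the block its FDR was 0.220 (edgeR). Ccn1 was lower with HG + FFA in 7 of 9 sets and with ALL in 5 of 9, at log2FC -0.41 ± 0.14 and -0.37 ± 0.14 (edgeR FDR = 0.0965 and 0.155), and its ratio was lowest in set 13, at 0.306 and 0.276.

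Within single sets, Ankrd1 was often above the Control where Ccn1 or Ccn2 was below it, and this was seen in each cell type with HG + FFA. In EC it held for Ccn2 in 8 of 9 sets with HG + FFA and in 8 of 9 with ALL. For Ccn1 in EC it held in 7 of 9 sets with HG + FFA and in 5 of 9 with ALL, and in the other 4 sets with ALL both genes were above Control. In WT VSMC it held for either gene in 3 of 4 sets with HG + FFA, and with ALL in 2 of 4 for Ccn1 and 1 of 4 for Ccn2. In KO VSMC it held for Ccn1 in 4 of 4 sets with HG + FFA and 3 of 3 with ALL, and for Ccn2 in 2 of 4 and 2 of 3. With AII + NA, all 3 genes were above Control in 4 of 4 sets of WT VSMC and of KO VSMC. The difference between the genes was not tested.

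In EC, 2 of 10 members were called with HG + FFA beside 3.53% of 17148 genes, 2 with ALL beside 3.18%, and 2 in ALL minus AII + NA beside 3.22%. None met the DEG rule of the study, beside 0.641% of genes with HG + FFA and 0.636% with ALL. No member was called with AII + NA or in ALL minus HG + FFA in edgeR or DESeq2, 0 and 1 had an unadjusted p under 0.05 beside 6.67% and 5.14% of genes, and no other gene was called in these comparisons either. Without the filter on low counts, edgeR called 44 and 126 of 36539 genes there and again no member. The endothelial markers summed to 59.0 to 4456 FPM under Control conditions and 67.3 to 5277 FPM with HG + FFA. The median of this sum was 792 FPM under Control conditions, 1468 FPM with HG + FFA, 796 FPM with AII + NA and 1397 FPM with ALL, and that of the fibroblast markers was 3442, 2649, 3381 and 2730 FPM. For the cardiomyocyte markers the median was 143, 82.1, 81.4 and 87.1 FPM. These medians are over 9 or 10 libraries that are not from the same sets throughout, and the part of the markers in the values of the members was not tested.

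**Figure D4:**
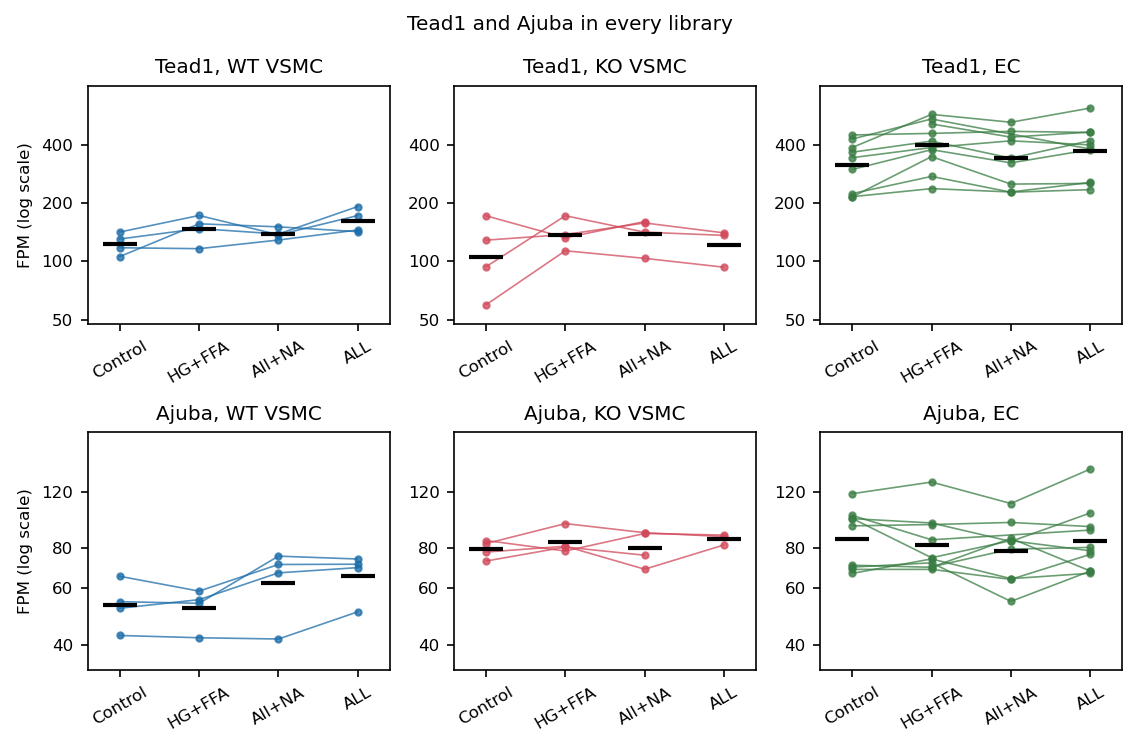
Tead1 and Ajuba in FPM (log scale) in every library, with lines joining the libraries of a set and black bars at the geometric mean of a condition. Tead1 is higher at HG+FFA than at Control in all 9 EC sets with both libraries, and Ajuba is higher at ALL than at Control in all 4 WT VSMC sets.

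Stressor effects were compared directly between genotypes by subtracting the log2FC in KO VSMC from that in WT VSMC. No member was called in edgeR or DESeq2 for any stressor. Without the filter on low counts, edgeR called 3 members with AII + NA beside 0.98% of 35709 genes and 3 with ALL beside 0.905%. With AII + NA the difference was 1.29 ± 0.47 for Ankrd1, 0.60 ± 0.32 for Ccn1 and 0.74 ± 0.31 for Ccn2 (edgeR FDR = 0.395, 0.439 and 0.404), and 3 members had an unadjusted p under 0.05, among them Wwtr1 at -0.31 ± 0.15, beside 11.9% of 18339 genes. With ALL the differences were 0.84 ± 0.49, 0.67 ± 0.34 and 0.80 ± 0.33 (edgeR FDR = 0.733, 0.697 and 0.606), 1 member had an unadjusted p under 0.05 beside 7.42%, and 0.0109% of genes were called in edgeR and 0.316% in DESeq2. With HG + FFA no member had an unadjusted p under 0.05, beside 3.08% of genes. Without set 4, the difference was 0.71 for Ankrd1, 0.32 for Ccn1 and 0.39 for Ccn2 with AII + NA, and 0.41, 0.24 and 0.41 with ALL.

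The mean levels of Ankrd1, Ccn1 and Ccn2 before any stressor were also higher in KO VSMC than in WT VSMC, but none passed the threshold across all genes. Under Control conditions, Ankrd1 had 138 ± 114 FPM in KO VSMC and 27.9 ± 37.9 FPM in WT VSMC, Ccn1 779 ± 353 and 345 ± 141 FPM, and Ccn2 2823 ± 1977 and 984 ± 712 FPM (SD, n = 4 each). The fitted log2FC of Ankrd1 was 2.299 ± 1.004 (edgeR FDR = 0.409) and ranged from 1.80 without set 7 to 3.93 without WT VSMC set 3, the set with the highest Ankrd1. The ranges overlapped for all 3, and the two-sided exact permutation test over the sets gave p = 0.0857, 0.114 and 0.143. Ajuba had 79.4 ± 5.204 FPM in KO VSMC and 53.6 ± 9.30 FPM in WT VSMC without overlap (two-sided exact permutation p = 0.0286, the smallest that 4 against 4 sets can give). It was the only one of 10 members without overlap, beside 5.32% of 16089 genes. In the model across all genes no member was called in edgeR (4 had an unadjusted p under 0.05, all higher in KO VSMC, beside 12.2% of genes), DESeq2 called Ajuba beside 2.13% of genes, and edgeR called 0.00622% (397 of 16492 genes without KO set 5). Fibroblast markers summed to 1418 to 6289 FPM in KO VSMC and 4867 to 11440.1 FPM in WT VSMC under Control conditions. Smooth muscle markers summed to 965 to 3033 FPM (median 1560) in KO VSMC and 356 to 1199 FPM (median 723) in WT VSMC. For cardiomyocyte markers the sums were 21.5 to 198 FPM (median 82.8) and 6.39 to 34.4 FPM (median 22.3). The part of these lists in the values of the members was not tested.

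Between WT VSMC and EC, Ccn2 was the member whose stressor effect differed. With ALL its log2FC was 1.12 ± 0.25 larger in WT VSMC than in EC (edgeR FDR = 0.0152), as Ccn2 was above Control in 3 of 4 WT VSMC sets and below it in 8 of 9 EC sets. This was lost without set 2 or 4 and without EC sets 15 and 16 (edgeR FDR = 0.144, 0.245 and 0.0688). It was 1 of 10 members called, beside 0.511% of 19362 genes, while 4 had an unadjusted p under 0.05 beside 6.48% and DESeq2 called 1 beside 0.93%. Over all genes, edgeR called 99 with every set, 35 without set 2 and 36 without set 4. With AII + NA the differences were 1.71 ± 0.37 for Ankrd1, 0.93 ± 0.30 for Ccn1 and 1.05 ± 0.25 for Ccn2 (edgeR FDR = 0.0672, 0.402 and 0.116). None was called in edgeR, 7 members had an unadjusted p under 0.05 beside 6.5% of genes, 0.0465% of genes were called in edgeR, and DESeq2 called 2 members, namely Ankrd1 and Ccn2, beside 0.274%. Both were also called in edgeR without WT VSMC set 1 (FDR = 0.0222 and 0.0366) or set 3 (FDR = 0.0222 and 0.0465). Neither was called without set 2 or set 4. Over the WT VSMC sets left out in turn, the difference ranged from 1.12 to 2.04 for Ankrd1 and from 0.70 to 1.26 for Ccn2. With HG + FFA no member was called in edgeR or DESeq2 (0.0155% of genes) or had an unadjusted p under 0.05 (2.05%). Cell type, organ and batch cannot be told apart in these comparisons, as the labels put all VSMC in one batch and all EC in another. The animal was not used as the block in them, so that EC sets 17 and 18 counted as separate.

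**Figure D5:**
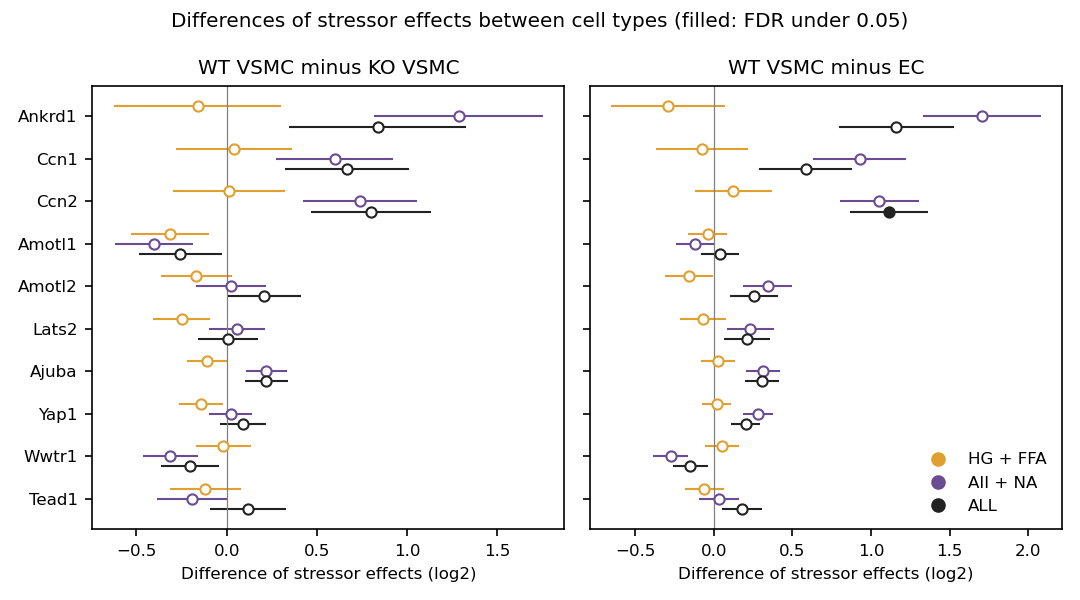
Difference of the stressor effects (log2) between WT VSMC and KO VSMC and between WT VSMC and EC for each member, with its standard error. Ccn2 with ALL in the comparison with EC is the only filled symbol (edgeR FDR under 0.05), and with AII + NA Ankrd1 lies farthest to the right in both panels, at 1.29 and 1.71.

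Control levels were higher in EC than in WT VSMC for 5 of 10 members, beside 12% of 17115 genes called. Over all genes, this count of 2062 was 654 to 863 without one of the WT VSMC sets and 987 without EC sets 15 and 16. They were Tead1 with a log2FC of 1.41 ± 0.24 (edgeR FDR = 0.00432), Ccn1 with 1.58 ± 0.45 (edgeR FDR = 0.0371), Amotl2 with 1.08 ± 0.16 (edgeR FDR = 0.00208), Ajuba with 0.72 ± 0.19 (edgeR FDR = 0.0260) and Amotl1 with 0.66 ± 0.18 (edgeR FDR = 0.0356). For Amotl2 the 9 EC libraries lay between 565 and 808 FPM and the 4 WT VSMC libraries between 284 and 362 FPM. Tead1 had 215 to 450 FPM in EC and 106 to 142 FPM in WT VSMC. The calls of Tead1 and Amotl2 held without each WT VSMC set in turn. Ajuba was lost without set 1, 2 or 4 (edgeR FDR = 0.0976, 0.0864 and 0.0725), and Ccn1 and Amotl1 were lost without any one of the 4 sets and also without EC sets 15 and 16 (edgeR FDR = 0.0774 and 0.0546). Ankrd1 (2.86 ± 0.89) and Wwtr1 (1.19 ± 0.37) just missed the threshold in edgeR (FDR = 0.0512 and 0.0505) but were called in DESeq2 (FDR = 0.000977 and 0.00987), which called 7 members beside 21.1% of genes. Without WT VSMC set 3, the set with the highest Ankrd1, the value for Ankrd1 was 4.48 (edgeR FDR = 0.0153). No fit of this comparison used the animal. EC sets 17 and 18, from the same animal, counted as separate, and EC set 9 shared its animal with WT VSMC set 1.

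Further genes of the pathway were looked at as lists. Of 17 other genes of a YAP-TAZ signature, 4 were higher and none lower with ALL in WT VSMC, beside 7.45% of all genes called. They were Tgfb2, a TGF-beta ligand (log2FC 0.96 ± 0.17), Myof, a membrane repair protein (0.40 ± 0.11), Arhgef17 (0.40 ± 0.09), and Asap1 (0.39 ± 0.10). The median log2FC of the list was 0.042 against -0.010 for all genes. With ALL, Tgfb2 differed between WT VSMC and EC by 0.99 ± 0.16 (edgeR FDR = 3.70e-04), beside 0.511% of all genes called. In KO VSMC and in EC no gene of this list was called with any stressor in edgeR, with 2 to 6 and 2 to 3 genes at an unadjusted p under 0.05 and 1 DESeq2 call, in KO VSMC with ALL. Over all genes, 1711 to 2181 of 17538 in KO VSMC and 1143 to 2894 of 17148 in EC had such a p. In ALL minus AII + NA in EC, Gadd45a was higher (0.37 ± 0.10) and Dock5 lower (-0.44 ± 0.09), beside 3.22% of all genes called. Under Control conditions, beside 12% of all genes called, EC exceeded WT VSMC for Tgfb2 (2.14 ± 0.40), Ptpn14 (1.96 ± 0.58), Crim1 (1.38 ± 0.33) and Myof (1.25 ± 0.19) and were lower for F3, tissue factor (-3.53 ± 0.66).

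The list of 22 Hippo kinases, adaptors and TEAD partners had 5 genes higher and 1 lower with ALL in WT VSMC, again beside 7.45% of all genes. Higher were the adaptor Wwc1 (0.58 ± 0.09), the kinase Map4k4 (0.48 ± 0.12), Wtip, a LIM protein related to AJUBA (0.38 ± 0.10), and Nf2, which encodes merlin (0.28 ± 0.08), as well as Tead2 (0.26 ± 0.07). Stk3, a Hippo kinase upstream of LATS2, was lower (-0.41 ± 0.07). The median was 0.073 against -0.010 for all genes. Wwc1 was also higher in ALL minus AII + NA (0.48 ± 0.09), beside 1.36% of all genes called. In EC, Map4k4 was higher with HG + FFA (0.25 ± 0.06) and Frmd6, an activator of the Hippo kinases, lower with ALL (-0.22 ± 0.05). That was 1 of 22 genes of the list in each, beside 3.53% and 3.18% of all genes. ALL minus AII + NA in EC gave Tead2 (0.39 ± 0.09) and Map4k4 (0.23 ± 0.06) higher and Frmd6 lower (-0.27 ± 0.05), beside 3.22% of all genes called. Under Control conditions, 6 genes of the list were higher in EC than in WT VSMC, led by Tead4 (2.00 ± 0.51), Wwc1 (1.79 ± 0.38), Wwc2 (1.29 ± 0.21) and Amot (0.94 ± 0.28), and Wtip was lower (-0.82 ± 0.18), beside the 12% of all genes.

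SRF and its co-activator MRTF respond to actin polymerisation as YAP does. Of a list of 20 of their factors and targets, 6 were higher and 1 lower with ALL in WT VSMC, beside 7.45% of all genes. Among the higher ones were the LIM protein gene Fhl1 (0.54 ± 0.09), Flna, which encodes filamin A (0.53 ± 0.13), and Actn1, which encodes an actinin (0.49 ± 0.12). Tagln had the largest value (0.95 ± 0.26) but an uncertain one, as it was low in WT VSMC with 1.68 to 6.59 FPM beside 223 to 1884 FPM for Acta2, and exons of other annotated genes covered 66.7% of its exon length. Egr1, an immediate early gene, was lower (-1.05 ± 0.27). Acta2, Tagln, Cnn1 and Lmod1 of this list are also among the smooth muscle markers given above. The median log2FC of this list was 0.49 with ALL and 0.46 with AII + NA, against -0.010 and -0.012 for all genes, and 16 of 20 genes had an unadjusted p under 0.05 in both, beside 21.7% and 9.42% of all genes. With AII + NA none was called in edgeR (0.0532% of all genes) and 2 in DESeq2 (1%). In EC, Egr1 was lower with HG + FFA (-0.83 ± 0.15) and with ALL (-0.82 ± 0.15), and in ALL minus AII + NA (-0.71 ± 0.15), and Filip1l was higher with HG + FFA (0.46 ± 0.11). Of all genes, 3.53% were called with HG + FFA, 3.18% with ALL and 3.22% in ALL minus AII + NA. Vcl, which encodes vinculin, and Actn1 differed between WT VSMC and EC with ALL, by 0.82 ± 0.18 and 0.55 ± 0.13, beside 0.511% of all genes called. In EC under Control conditions Filip1l (2.86 ± 0.31), Vcl (1.26 ± 0.21), Actn1 (1.02 ± 0.22) and Flna (0.78 ± 0.21) were higher than in WT VSMC, beside 12% of all genes called. Between the genotypes, the median difference of the SRF list was 0.46 with ALL, and 13 of its 20 genes had an unadjusted p under 0.05 beside 7.42% of all genes, with none called in edgeR and 1 in DESeq2. Under Control conditions, the median log2FC of this list in KO VSMC against WT VSMC was 0.60. There 11 of its 20 genes had an unadjusted p under 0.05 beside 12.2% of all genes, with none called in edgeR and 2 in DESeq2. No gene of the Hippo or SRF list was called in KO VSMC with any stressor in edgeR or DESeq2, while 2 to 5 and 1 to 4 had an unadjusted p under 0.05. Over all genes, 1711 to 2181 of 17538 had such a p there.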

How the data were processed

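Poly(A) RNA-Seq libraries (69) of WT VSMC, KO VSMC and EC were used. The authors aligned the paired reads to mm39 with HISAT2 2.1.0, counted them over exons with featureCounts, including reads with several alignments, and deposited raw counts per gene without normalization. The strand setting and the treatment of read pairs are not given in the sources used here. Of 56953 identifiers, 56310 were matched to GENCODE vM39 on GRCm39, a release other than the Ensembl release the authors used, and 0.0241% of counts had no match.

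Members and gene lists were chosen with earlier results of these data known. For each cell type, edgeR 4.0.16 (R 4.3.3) was used with filterByExpr, TMM and a quasi-likelihood model of set and condition, and the FDR was computed with the Benjamini-Hochberg method across every gene tested (threshold 0.05). The SE is |log2FC| divided by the square root of F. Differences between cell types came from joint models, and Control levels were compared between WT VSMC and KO VSMC or EC with the Control libraries alone. Ratios of single FPM values used a pseudocount of 0.1 FPM. Exact permutation tests (scipy 1.17.1) used log2 FPM of the Control libraries and are not adjusted. Named were all members, Egfr and up to 4 higher and 4 lower genes per list and comparison with the largest |log2FC| under the threshold. For the Hippo list with ALL in WT VSMC, all 5 higher genes were named.

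Sets pair the samples by the animal in the labels. Deviations from the condition means correlated on average at 0.809, 0.788 and 0.851 between libraries of a set (WT VSMC, KO VSMC, EC) and at -0.277, -0.282 and -0.0930 between sets. No 2 libraries of a group were duplicates (chi-square per gene of at least 45.9 over 207 pairs). Alternatives were DESeq2 1.42.0, edgeR with its size factors, edgeR on unfiltered counts, leaving out the set block, only the 2 groups compared, the animal as block, the DEG rule and sets left out. On simulated data (16628, 17092 and 16904 genes), 77.5%, 66.5% and 72% of 200 genes changed by a log2FC of 1 with ALL were recovered in WT VSMC, KO VSMC and EC, and 58% (17789 genes) for the WT VSMC minus KO VSMC difference with ALL. Figures used matplotlib 3.10.9 (Python 3.11.15). Promoter windows were cut for 9 members, and 1 is not reported here.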

Additional observations from a re-analysis of the deposited data

Results flagged for a closer look

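In groups of 4 to 10 libraries, a library was singled out where its gap to the nearest other library was large for the range of the group (Dixon's 95% value), which chance does in about 1 of 20 groups. Among 11 such cases in 121 groups of members and Egfr, Ankrd1 in WT VSMC set 3 stood apart under 2 conditions, with 84.4 FPM under Control conditions (others 5.36 to 15.01 FPM) and 118 FPM with HG + FFA (others 5.89 to 18.01 FPM). Amotl2 had 212 FPM in WT VSMC set 1 with HG + FFA (others 305 to 311 FPM), and Yap1 had 245 FPM in WT VSMC set 4 with ALL (others 177 to 183 FPM). In KO VSMC set 8, Lats2 had 47.4 FPM under Control conditions (others 77.8 to 82.3 FPM) and Ajuba 95.3 FPM with HG + FFA (others 78.3 to 81.1 FPM). Ajuba also stood apart in EC set 12, with 128 FPM with HG + FFA (others 68.7 to 95.8 FPM) and 141 FPM with ALL (others 66.8 to 103 FPM). Egfr in KO VSMC set 5 had 40.2 FPM under Control conditions, 33.4 FPM with HG + FFA and 35.4 FPM with AII + NA, where the other KO sets had 0.537 to 1.96 FPM.

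The effect of ALL on Ccn2 differed between WT VSMC and EC by a log2FC of 1.12 (edgeR FDR = 0.0152) in the test of the difference itself. It was lost without set 2 or 4 and without EC sets 15 and 16 (edgeR FDR = 0.144, 0.245 and 0.0688). No other such difference between cell types was called for a member in edgeR with every set and the filter on low counts. Ankrd1 and Ccn2 were called with AII + NA without WT VSMC set 1 or 3, but not without set 2 or 4.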

How the results depend on the processing

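The number of members called in edgeR with the set as block is given in brackets. Without the replicate block, that is without the pairing by set, 0 members were called with ALL in WT VSMC (3), with ALL (1) and in ALL minus AII + NA (1) in KO VSMC, with HG + FFA, with ALL and in ALL minus AII + NA in EC (2 each) and in the WT VSMC minus EC difference with ALL (1), and it changed no other count of members. Over all genes, the fit without the block called 2, 2 and 3 in the EC comparisons named and 0 in the others named. The log2FC reversed without the block for Ccn2 with ALL in KO VSMC (0.030), Ankrd1 with AII + NA in EC (0.18) and the WT VSMC minus KO VSMC difference of Ankrd1 with ALL (-0.12), where no ALL library of KO set 5 exists. With no filter on low counts, the members called in WT VSMC were 1 with HG + FFA (0), 5 with AII + NA (0), 5 with ALL (3), 5 in ALL minus HG + FFA (0) and 2 in ALL minus AII + NA (0). In KO VSMC they were 2 with HG + FFA (0), 2 with ALL (1) and 2 in ALL minus AII + NA (1), and in EC 4 with HG + FFA (2). They were 3 with AII + NA (0) and 3 with ALL (0) in WT VSMC minus KO VSMC, 3 with AII + NA (0) and 3 with ALL (1) in WT VSMC minus EC, and 3 in EC against WT VSMC under Control conditions (5). Calls over all genes moved too, in WT VSMC to 575 with HG + FFA (91), 625 with AII + NA (9), 1885 with ALL (1259), 653 in ALL minus HG + FFA (7) and 966 in ALL minus AII + NA (230), in KO VSMC to 598 with HG + FFA (77), 464 with ALL (70) and 434 in ALL minus AII + NA (70), and in EC to 886 with HG + FFA (605). They moved to 350 with AII + NA (0) and 323 with ALL (2) in WT VSMC minus KO VSMC and to 191 with AII + NA (9) and 359 with ALL (99) in WT VSMC minus EC. In EC against WT VSMC under Control conditions they moved to 1557 (2062). The cause was not tested. DESeq2 called 1 member with AII + NA (0), 5 with ALL (3) and 1 in ALL minus HG + FFA (0) in WT VSMC, 1 with HG + FFA in KO VSMC (0), 1 in KO VSMC against WT VSMC (0) and 2 in WT VSMC minus EC with AII + NA (0). By the DEG rule of the study, 1 was called with ALL in WT VSMC (3) and 0 with HG + FFA and 0 with ALL in EC (2 each). With the animal as the block, 1 was called with HG + FFA, 0 with ALL and 0 in ALL minus AII + NA in EC (2 each), beside 157, 134 and 159 of all genes (605, 546 and 552), and with only the 2 groups compared 1 with HG + FFA in WT VSMC (0), 1 with HG + FFA in EC (2) and 0 with ALL in EC (2). Without EC sets 15 and 16, 1 was called with ALL and 1 in ALL minus AII + NA in EC (2 each), 3 in EC against WT VSMC (5) and 0 in WT VSMC minus EC with ALL (1), and the log2FC with AII + NA reversed to 0.030 for Ankrd1 and 0.013 for Ccn2. DESeq2 size factors in edgeR changed no count of members by more than 1.5 times.

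Single sets were left out in turn, which for the comparisons within EC was added after seeing the data, and in the comparisons of EC with WT VSMC only the WT VSMC sets were left out. This gave 1 to 2 members called with ALL in WT VSMC, 0 to 4 with HG + FFA, 0 to 1 with ALL and 0 to 1 in ALL minus AII + NA in KO VSMC, 1 to 3 with HG + FFA, 1 to 2 with ALL and 1 to 2 in ALL minus AII + NA in EC, 2 to 4 in EC against WT VSMC, and 0 to 2 with AII + NA and 0 to 1 with ALL in WT VSMC minus EC. The log2FC of Ccn1 with ALL in WT VSMC ranged from -0.22 to 0.54, that of Ccn2 with ALL in KO VSMC from -0.23 to 0.019 and that of Ccn1 with AII + NA in EC from -0.075 to 0.055. For single members, 886 of the values under alternatives kept direction and side of the threshold, 56 passed it, 65 fell short of it and 8 reversed.

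Counts over all genes moved as well. With ALL, edgeR called 1259 genes for WT VSMC, 70 for KO VSMC and 546 for EC, and DESeq2 called 1645, 259 and 895. With HG + FFA these were 91, 77 and 605 in edgeR and 294, 246 and 969 in DESeq2, and with AII + NA 9, 0 and 0 against 169, 11 and 0. Leaving out one set, edgeR called 494 (set 4) to 970 genes with ALL in WT VSMC. In KO VSMC it called 0 (set 7) to 1442 (set 5) genes with HG + FFA, 0 (set 7) to 175 (set 5) with ALL and 2 (sets 6 and 7) to 127 (set 5) in ALL minus AII + NA. In EC it called 245 to 722 genes with HG + FFA, 305 to 615 with ALL and 352 to 682 in ALL minus AII + NA. Every member had at least 147 counts in each library.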
